A study of Caenorhabditis elegans with 6 samples.

Results

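C-type lectin domain genes of C. elegans were compared between worms raised on a low dose mixture (LDM) of the organophosphates chlorpyrifos (CPF) and diazinon (DZN) and worms raised on the solvent alone. The members are all genes on the array whose current symbol starts with clec-. They were found by matching the sequence name of each probe to a RefSeq symbol, and they number 229 of the 18889 genes on the array, with 243 of its 22490 gene probes. RefSeq lists 264 such symbols in assembly WBcel235, and the 35 without a probe here were not analysed.

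Both groups were Bristol N2 worms hatched from bleached eggs on agar with E. coli OP50 as food, and collected after 72 h at 16 °C at the L3/L4 stage. The agar of the treated worms held CPF at 0.5 and DZN at 1, in mg/l by the methods and in mg/ml by the sample labels, and both groups received acetone. A sample pooled whole worms from 4 dishes. Each of the 6 arrays compared 1 LDM sample with 1 control sample in the dyes Cy3 and Cy5, and the LDM sample carried Cy5 on 3 of them and Cy3 on the others. The arrays are named by that dye and their replicate number. Ratios are LDM over control on the log2 scale, so that a positive value stands for a higher transcript level with the LDM, and a value of 1 for a doubling.

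C-type lectin domains are folded protein modules named for calcium-dependent sugar binding, although many proteins with the fold do not bind sugars. In vertebrates they include collectins and selectins, and some act as receptors that recognize microbes. In C. elegans the family has expanded greatly, most members are predicted to be secreted, and many are expressed in the intestine or the hypodermis. The transcripts of many clec genes change in worms that feed on pathogenic bacteria, partly under the p38 kinase PMK-1 and other regulators of intestinal immunity, and different pathogens move different sets. Few members have a function shown by mutation, and the role of most members named here is not known.

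The image software marked most clec spots. Of the marked ones 15.7 to 35.7% per array were above background in both channels, that is, brighter than the local background by more than 2 of its SD, and of the unmarked ones all were. Unmarked were 14.8 to 18.9% of the clec spots, and 37.6 to 41.9% of all gene spots, where the LDM sample carried Cy5. Where it carried Cy3 these shares were 31.3 to 36.6% and 56.5 to 61.4%. A gene was tested where 1 of its probes was unmarked on at least 2 arrays of each dye orientation. Of the 229 members 37 (16.2%) could be tested, against 42.3% of all genes on the array. Among the tested members 31 were measured on 6 arrays, 5 on 5 arrays and 1, clec-8, on 4 arrays. All 37 were above background in both channels of all 6 arrays. Of the 192 untested members 131 had no unmarked spot on any array, 48 were above background in neither channel of any array, and 19 were above it in both channels of all 6 arrays but marked too often for a test. The 19 members annotated as pseudogenes were all untested. The tested members lay on chromosomes II (6 of 48 members), III (3 of 18), IV (13 of 48), V (13 of 80) and X (2 of 3), and 0 of the 32 members on chromosome I could be tested.

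Most tested C-type lectin genes differed little between LDM and control worms, and a few differed by more than the spread between arrays. Two-sided tests were run in limma with a dye effect for each gene and adjusted after Benjamini-Hochberg over the 7989 genes tested. By this test 2 members, clec-209 and clec-45, rose (5.41% of the members tested, where 0.313% of all genes tested were called higher). No member fell (0 of 37, where 0.0626% of all genes were called lower). At an unadjusted p under 0.05, 10 members were higher (27.0%, against 4.41% of all genes) and 3 were lower (8.11%, against 4.92%). By rank product, the test of the study's methods, at an estimated percentage of false positives (pfp) under 0.05, 4 members were higher (10.8%, against 1.34% of all genes), namely clec-209, clec-47, clec-45 and clec-72. Another 2 were lower (5.41%, against 0.476%), clec-60 and clec-86. In all, 25 tested members had a log2 ratio above 0 and 12 below 0, with a median of 0.11 beside -0.03 over all genes tested. With marked spots kept, all 229 members could be fitted, at a median of -0.01 beside -0.02 over all genes, with 112 above 0 and 117 below. At an unadjusted p under 0.05, 21 of them were then higher (9.17%, against 4.47% of all genes) and 17 lower (7.42%, against 5.9%). In whole worms, fewer cells of a type and less RNA per cell cannot be told apart. The p-values measure the spread between these arrays.

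**Figure D1:**
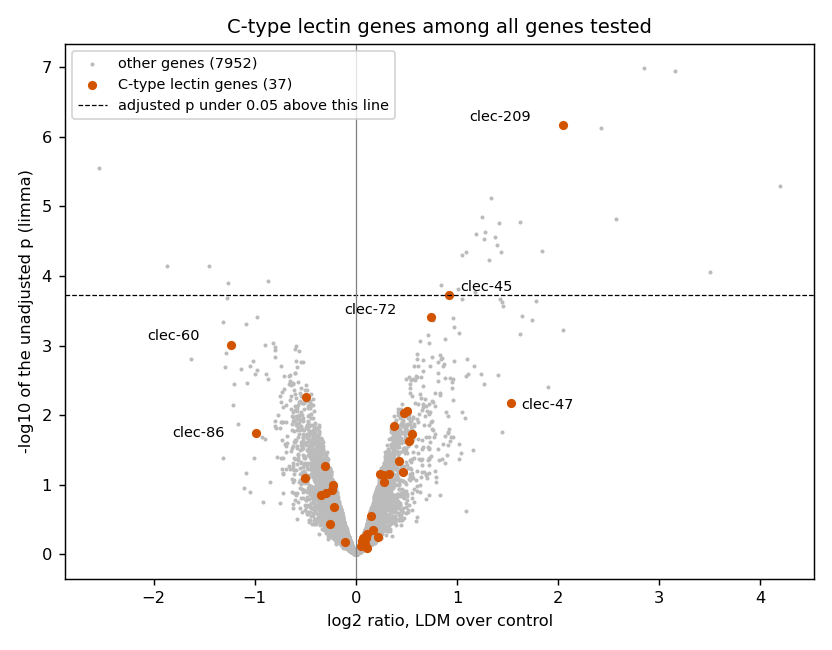
Log2 ratio of LDM over control (x axis) against -log10 of the unadjusted limma p (y axis) for the 7952 other genes tested (grey) and the 37 C-type lectin genes (orange), with an adjusted p under 0.05 on or above the dashed line. clec-209, at 2.05, lies above the line and clec-45, at 0.92, lies on it. clec-72, clec-60, clec-47 and clec-86, which passed by rank product, lie below it.

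The member that differed most from control was clec-209 (Y19D10A.9, chromosome V), whose role is not known. Its log2 ratios in replicates 1, 2 and 3 were 2.33, 2.17 and 1.55 with LDM in Cy5, and 2.07, 2.04 and 2.15 with LDM in Cy3. All 6 arrays were therefore high, and LDM in Cy5 replicate 3 was the lowest. In intensity after normalization (arbitrary units) the probe read 1123 to 1675 in control and 4449 to 8244 in LDM worms, so that the groups did not overlap. The estimate was 2.05 (standard error 0.14, 95% interval 1.73 to 2.37, n = 6 arrays), a 4.14-fold rise with an adjusted p = 0.00147 in limma and a pfp of 0 by rank product. It had the third lowest p of all genes tested. With any 1 array left out, its log2 ratio lay between 1.97 and 2.17 and passed limma in all 6 fits (adjusted p 0.000443 to 0.0281).

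A smaller rise was found for clec-45 (F07C4.2, chromosome V), also a member of unknown role. The log2 ratios were 0.69, 0.86 and 0.79 with LDM in Cy5 and 0.61, 1.25 and 1.34 with LDM in Cy3. All 6 arrays were above 0, with LDM in Cy3 replicates 2 and 3 the highest. Between arrays the level varied more than between groups, from 2341 to 10109.5 in control and from 3581 to 16366 in LDM worms, so that the groups overlapped although LDM exceeded control on each array. The estimate was 0.92 (standard error 0.14, 95% interval 0.60 to 1.25), a 1.90-fold rise that passed limma narrowly (adjusted p = 0.0494) and the rank product with a pfp of 0.00565. The limma call ended with any 1 array left out (adjusted p 0.0530 to 0.375, log2 ratio 0.86 to 1.04), and the rank product call ended without LDM in Cy3 replicate 2 (pfp 0.0541). The limma call also ended under 8 of 14 other settings of the processing or the model, with an adjusted p of 0.103 at most. LDM in Cy3 replicate 1 is the array with a date of image analysis of its own, and without it the adjusted p was 0.102.

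For clec-72 (Y46C8AL.5, chromosome IV) the log2 ratios were 1.08, 1.25 and 0.83 with LDM in Cy5 and 0.34, 0.31 and 0.62 with LDM in Cy3. The 6 arrays were all above 0, and the 3 arrays with LDM in Cy5 were above the other 3. The estimate of 0.74 (standard error 0.12, 95% interval 0.45 to 1.03) did not pass limma (adjusted p = 0.0801) and passed the rank product (pfp 0.0428), and its dye effect of 0.31 did not pass (adjusted p = 0.774). Without LDM in Cy5 replicate 3 it passed limma too (adjusted p = 0.0442). The rank product call was kept without that array (pfp 0.0299) and lost without each of the other 5 (pfp 0.0696 to 0.156).

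The widest spread among the members called by rank product was that of clec-47 (T09F5.9, chromosome V). Its log2 ratios with LDM in Cy5 were 2.82 and 1.15 in replicates 2 and 3, with the spot marked in replicate 1, and those with LDM in Cy3 were -0.32, 1.52 and 2.03. It was thus high on 4 of 5 arrays and slightly below 0 on LDM in Cy3 replicate 1. The level differed strongly between arrays, from 237 to 3111 in control and 680 to 17110.0 in LDM worms. The estimate was 1.53 (standard error 0.40, 95% interval 0.59 to 2.48, n = 5), which did not pass limma (adjusted p = 0.317) and passed the rank product (pfp 0.000333), also in each of the 4 fits without 1 array that still measured it (pfp 0 to 0.00588). Among these fits, the 1 without LDM in Cy5 replicate 1 dropped no value of this gene. Without LDM in Cy5 replicate 2, its highest array, or replicate 3 the gene could not be tested.

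**Figure D2:**
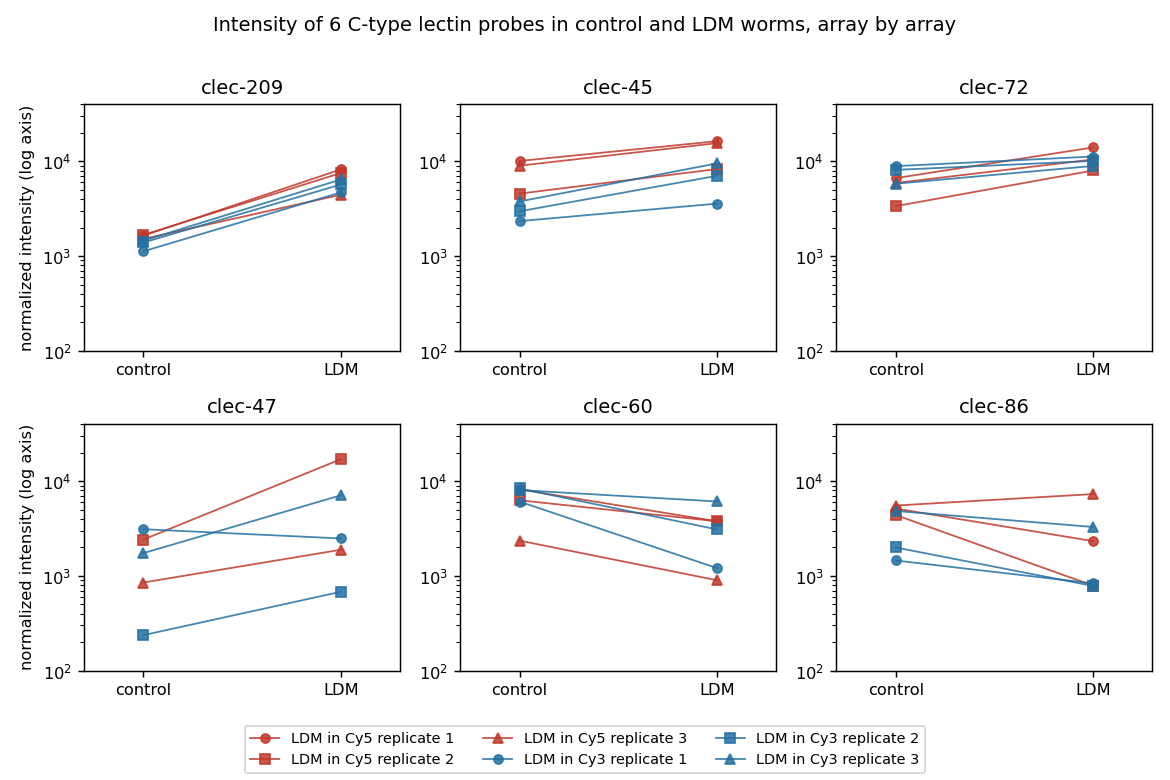
Normalized intensity (log axis, arbitrary units) of the probes of clec-209, clec-45, clec-72, clec-47, clec-60 and clec-86 in the control and the LDM sample, joined by a line for each array (red, LDM in Cy5; blue, LDM in Cy3; circle, square and triangle for replicates 1, 2 and 3). For clec-209 all 6 lines climb from 1123 to 1675 up to 4449 to 8244, while for clec-60 all 6 lines descend and for clec-86 only LDM in Cy5 replicate 3 climbs.

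The members lower with the LDM by rank product were clec-60 and clec-86. clec-60 (ZK666.6, chromosome II) is known for a strong rise in worms infected with Staphylococcus aureus. Its log2 ratios were -1.12, -0.74 and -1.39 with LDM in Cy5 and -2.34, -1.44 and -0.40 with LDM in Cy3. The LDM sample was below control on all 6 arrays, most of all on LDM in Cy3 replicate 1 and least on LDM in Cy3 replicate 3. Levels were 2356 to 8383 in control and 898 to 6109 in LDM worms and so overlapped between arrays. The estimate was -1.24 (standard error 0.24, 95% interval -1.79 to -0.68), 2.36-fold below control. It missed the threshold in limma (adjusted p = 0.142) and passed the rank product with a pfp of 0, and with any 1 array left out the pfp was 0 to 0.0336 and the log2 ratio -1.48 to -1.0.

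clec-86 (C54D1.2, chromosome X) had log2 ratios of -1.14, -2.48 and 0.40 with LDM in Cy5 and -0.80, -1.35 and -0.56 with LDM in Cy3. It was thus lower on 5 arrays and higher on LDM in Cy5 replicate 3, the array that ran against LDM in Cy5 replicate 2 over all genes. The estimate was -0.99 (standard error 0.33, 95% interval -1.76 to -0.22), 1.99-fold below control, with an adjusted p = 0.417 in limma and a pfp of 0.00864. It no longer passed the rank product when LDM in Cy5 replicate 2 was left out (pfp 0.0528, log2 ratio -0.64) or LDM in Cy3 replicate 2 (pfp 0.122).

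Another 7 members had an unadjusted p under 0.05 and passed neither tool over all genes. The only one with lower values was clec-180, at -0.49 (adjusted p = 0.288), which was below 0 on 5 arrays and at 0.00 on LDM in Cy3 replicate 1. The largest of the higher ones was clec-41, at 0.55 (adjusted p = 0.419), known to contribute to defence against Bacillus thuringiensis. Its log2 ratios were 1.12, -0.13 and 0.92 with LDM in Cy5 and 0.76, 0.44 and 0.22 with LDM in Cy3, with LDM in Cy5 replicate 2 the only array below 0. Of the rest, clec-186 (0.48, adjusted p = 0.353) and clec-66 (0.38, adjusted p = 0.393) were above 0 on all 6 arrays. The values of clec-66 lay between 0.16 and 0.56, with the smallest SD of all tested members (0.17), and those of clec-186 between 0.03 and 0.99. clec-84 (0.50, adjusted p = 0.344) and clec-76 (0.52, adjusted p = 0.440) were each below 0 on LDM in Cy3 replicate 1 only. clec-196 (0.43, adjusted p = 0.523, n = 5) ranged from -0.11 to 1.23, with 1 of its 5 arrays, LDM in Cy5 replicate 3, far above the others.

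**Figure D3:**
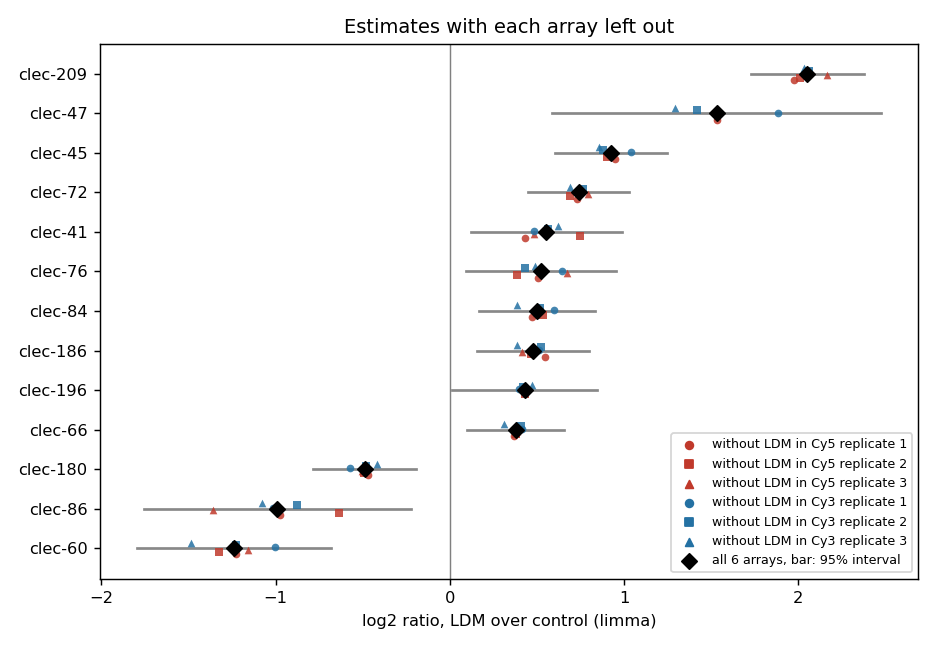
Log2 ratios of LDM over control (x axis) for the 13 C-type lectin genes with an unadjusted p under 0.05, as limma estimates over all arrays (diamonds, bars 95% intervals) and with each array left out in turn (small symbols; red, an array with LDM in Cy5; blue, with LDM in Cy3). Each estimate keeps its side of 0 in every fit that could be run. For clec-47 and clec-196 only 4 such fits could be run, and neither gene could be fitted without its highest array. The estimates of clec-209 stay between 1.97 and 2.17, while those of clec-86 run from -1.36 to -0.64.

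The sign of the ratio was the same on every array for 6 of the 31 members measured on all 6. Above 0 throughout were clec-209, clec-45, clec-72, clec-186 and clec-66 (16.1%, where 2.43% of all genes measured on 6 arrays were above 0 on each), and below 0 throughout was clec-60 (3.23%, against 3.25% of all genes). The 95% interval included 0 for 24 of the 37 members, and it lay wholly between -1 and 1 for 28, so that a doubling or a halving fell outside the interval for those 28. The SD over arrays was 0.17 to 1.34, with a median of 0.39 beside 0.42 over all genes tested. No member passed for the dye effect (0 of 37, lowest adjusted p = 0.741).

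**Figure D4:**
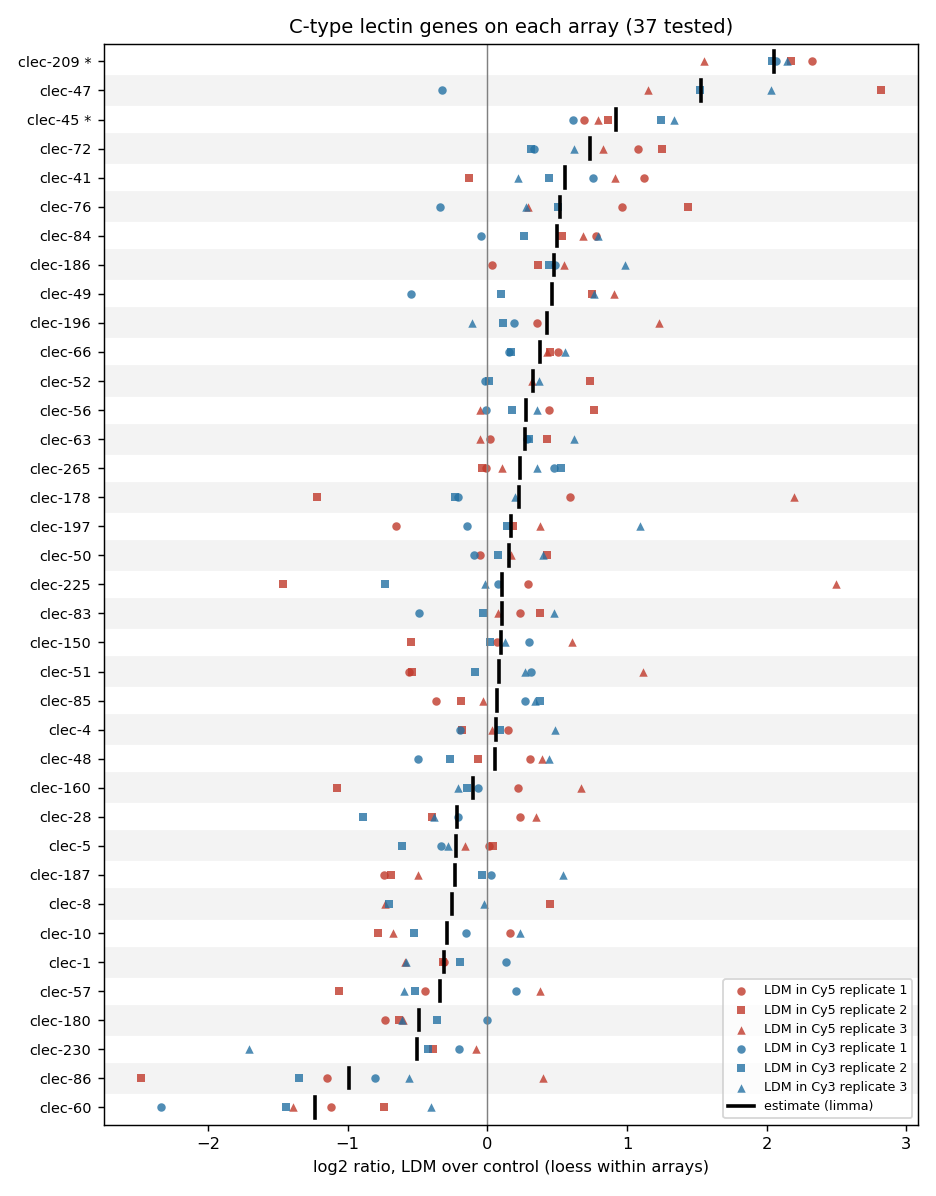
Log2 ratio of LDM over control (x axis) of each of the 37 tested C-type lectin genes (rows, ordered by estimate) on each array (red, LDM in Cy5; blue, LDM in Cy3; circle, square and triangle for replicates 1, 2 and 3), with the limma estimate as a black bar and an asterisk at an adjusted p under 0.05. The ratios of clec-209 sit between 1.55 and 2.33 apart from 0, whereas those of clec-225 spread from -1.46 to 2.49 around an estimate of 0.11.

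Of the members known from work on infection, several did not pass either tool. For clec-49, whose loss is known to make worms more sensitive to Serratia marcescens, the estimate was 0.47 (standard error 0.21, n = 5, adjusted p = 0.572), with values from -0.55 to 0.91. clec-85, a known target of the p38 pathway, stood at 0.07 (standard error 0.12, adjusted p = 0.904). With LDM in Cy5 its ratios were all below 0 (-0.37, -0.19 and -0.03), and with LDM in Cy3 all above 0 (0.27, 0.38 and 0.34), and its dye effect of -0.26 did not pass (adjusted p = 0.798). Estimates near 0 were also found for clec-4 (0.06, standard error 0.14), clec-83 (0.11, standard error 0.15), clec-50 (0.15, standard error 0.13) and clec-160 (-0.10, standard error 0.22). clec-63 (0.27, standard error 0.13) and clec-52 (0.33, standard error 0.15, n = 5) had 1 array below 0 each, and clec-1 (-0.31, standard error 0.14) had 1 array above 0. None of these had an unadjusted p under 0.05.

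Further members with larger estimates did not differ from control beyond the spread between arrays. clec-230 (-0.51, standard error 0.24, n = 5) was below 0 on each of its arrays, and clec-10 (-0.29, standard error 0.17) ranged from -0.78 to 0.23. clec-57 (-0.34, standard error 0.21) was the only member with 2 tested probes, whose mean ratios were -0.34 and -0.08. Both probes were lowest on the same array, LDM in Cy5 replicate 2 (-1.06 and -1.23), and highest on LDM in Cy5 replicate 3 (0.38 and 1.20). clec-178 and clec-225 showed the same opposition of these arrays more strongly. clec-178 read -1.22 on LDM in Cy5 replicate 2 and 2.20 on LDM in Cy5 replicate 3, and clec-225 read -1.46 and 2.49. Their estimates over all arrays were 0.22 (standard error 0.38) and 0.11 (standard error 0.44). The estimate was under 0.25 in size for 15 of the 37 members.

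Across the 37 members the ratios of 2 arrays correlated with Pearson's r of 0.10 to 0.80 over the 15 pairs of arrays, beside -0.37 to 0.41 across all genes tested. The members share arrays and samples and are not independent replicates. The upper values rest partly on the 6 members called by either tool, and without them r was -0.31 to 0.59 over 31 members. The lowest of all 3 ranges belonged to LDM in Cy5 replicates 2 and 3, so that these arrays disagreed for the C-type lectin genes as for the other genes.

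Of the 192 members that could not be tested, the ratios at every spot, marked or not, are a description only. Their means over 6 arrays lay between -0.78 and 2.07 with a median of -0.02 over 202 spots. Only 2 members had a mean of at least 1 in size, clec-206 and clec-174, both unmarked on the 3 arrays with LDM in Cy3. For clec-206 (F59A7.1, chromosome V) the log2 ratios were 1.24, 0.29 and 1.5 with LDM in Cy5 and 3.77, 2.76 and 2.88 with LDM in Cy3, with a mean of 2.07. For clec-174 (Y46C8AL.2, chromosome IV) they were 1.56, 0.45 and 1.14 with LDM in Cy5 and 2.29, 2.34 and 2.56 with LDM in Cy3, with a mean of 1.72. In both genes the ratios were above 0 on all 6 arrays and higher on the brighter arrays, those with LDM in Cy3, and in both the LDM channel was above background on 6 arrays and the control channel on 5. With marked spots kept, limma over 18889 genes called both higher (adjusted p = 0.0309 for clec-206 and 0.0223 for clec-174, where 0.101% of all genes were called higher). In that fit 3 of 229 members were called higher (1.31%), these and clec-209 (adjusted p = 0.00292), while clec-45 did not pass (adjusted p = 0.0662). In the same fit 0 of 229 members were called lower (0.0159% of all genes), with 17 lower at an unadjusted p under 0.05. At the authors' own ratios for every spot neither passed (means 1.80 and 1.51, adjusted p = 0.0856 and 0.0526).

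Among untested members known from infection work, clec-17 had a mean ratio of 0.49 and clec-7 of 0.61 over all spots, each above 0 on 5 of 6 arrays. clec-67 stood at 0.33, clec-87 at 0.32, clec-71 at -0.01, clec-91 at -0.19 and clec-82 at -0.68. The mean of clec-82 came from LDM in Cy3 replicates 1 and 2, at -2.24 and -2.14, while its other 4 arrays lay between -0.09 and 0.31. clec-39, whose loss is known to sensitize worms to Serratia marcescens, was at -0.13, and it was above background on 4 arrays in the LDM and 3 in the control channel. clec-42, like clec-41 known from defence against Bacillus thuringiensis, clec-65 and clec-190 were above background on at most 1 array in either channel, so that no level could be compared.

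C-type lectin genes often lie next to each other. In the gene order of WBcel235, with at most 5 other genes between neighbours, the 264 symbols formed 55 groups of neighbours, and 77 of them stood alone. clec-209, clec-47 and clec-86 had no clec gene that close. clec-60 lies in a group on chromosome II with clec-58, clec-59 and clec-61. Of these clec-61, an untested member of the infection list, had the lowest untested mean, -0.78. Its ratios were -0.27, -0.04 and 0.11 with LDM in Cy5 and -1.74, -1.39 and -1.37 with LDM in Cy3. It was thus low on the arrays with LDM in Cy3 and near 0 on the others. The spot was unmarked on 4 arrays, 1 of them with LDM in Cy5, and with marked spots kept it did not pass (adjusted p = 0.0584). clec-58 and clec-59 had means of -0.16 and -0.11.

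clec-72 lies in a group of 14 clec genes on chromosome IV, with 1 gene between it and clec-174. clec-76 of the same group was measured at 0.52, and the other 9 untested members of this group on the array had means of -0.24 to 0.33. In gene order clec-76 stood apart, with 5 genes between it and clec-72. Of the 10 pairs of tested neighbours, 7 had ratios of the same sign. With 25 of the 37 tested members above 0 and 12 below, many pairs that are not neighbours share a sign too. Whether neighbours do so more often was not tested. clec-186 (0.48) and clec-187 (-0.23), which adjoin, had opposite signs, as did clec-57 and clec-56 (0.28). Close paralogs can share hybridization to a probe, and this was not tested here.

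**Figure D5:**
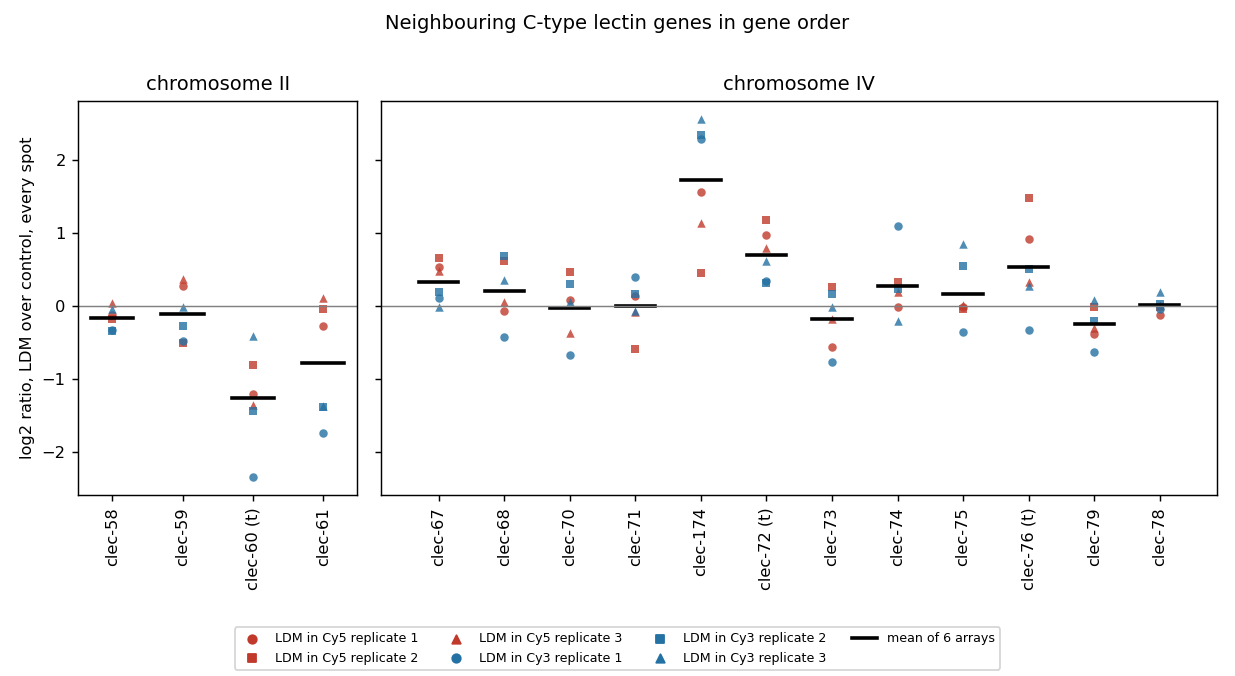
Log2 ratio of LDM over control at every spot, marked or not (y axis), of the measured C-type lectin genes around clec-60 on chromosome II and around clec-72 on chromosome IV, in gene order with even spacing, for each array (red, LDM in Cy5; blue, LDM in Cy3) with the mean of 6 arrays as a bar and (t) for tested genes. On chromosome II clec-60 and clec-61 lie lowest, and on chromosome IV clec-174, at 1.72, lies above clec-72 and clec-76 while the others stay between -0.24 and 0.33.

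Other gene groups of defence were measured on the same arrays. Of all genes tested 0.313% were called higher and 0.0626% lower in limma, so a count of 0 in lists this short is near that share. Galectins, which bind galactose-containing sugars through a different fold, had 0 of 10 tested genes called in either direction, with a median log2 ratio of 0.13. Lysozymes, which cleave bacterial cell walls, had 0 of 9 called, with a median of 0.20. Of 23 tested regulators of intestinal immunity, among them the p38 kinase cascade and the GATA factor elt-2, 0 were called, with a median of 0.15 beside -0.03 over all genes. At an unadjusted p under 0.05 the galectin lec-11 (0.55, adjusted p = 0.382), the lysozyme lys-5 (0.44, adjusted p = 0.441), pmk-1 itself (0.55, n = 5, adjusted p = 0.393) and the Hox gene egl-5 (0.30, adjusted p = 0.530) were higher, and no gene of these lists was lower. Those higher were 1 of 10 galectins, 1 of 9 lysozymes and 2 of 23 regulators. Of all genes tested, 4.41% were higher at this threshold and 4.92% lower. By rank product 0 genes of these 3 lists passed, where 1.34% of all genes were called higher and 0.476% lower.

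Markers of tissue and stage differed in how they varied. Over all genes tested, 0.313% were called higher and 0.0626% lower in limma, and 0.476% lower by rank product. At an unadjusted p under 0.05, 4.92% of all genes were lower. Intestine markers, the tissue of many clec genes, had 0 of 9 tested genes called and medians of -0.04 to 0.25 per array, with a summed intensity, over probes unmarked on all arrays, of 194915 to 238328 in LDM and 190360 to 221127 in control worms. Hypodermis markers had 0 of 5 called and 1 lower at an unadjusted p under 0.05 (dpy-7, a cuticle collagen gene, -0.41, adjusted p = 0.428), medians of -0.33 to 0.07 per array and sums of 78087 to 103760.0 in LDM and 78831 to 114446 in control worms. Muscle markers had 0 of 6 called and 0 at an unadjusted p under 0.05, with all 6 estimates below 0 (median -0.08), medians of -0.72 to 0.25 and sums of 105820.0 to 167025 and 129264 to 175384. Oocyte markers had 0 of 3 called, with medians of -1.25 to 0.48. Yolk protein genes, which mark the adult intestine, had 0 of 5 called in limma and 4 lower by rank product. Their medians ran from -2.93 on LDM in Cy3 replicate 1 to 2.44 on LDM in Cy3 replicate 3, with a sum of 4686 to 48834 in LDM and 9911 to 93506 in control worms, and all 5 were above background throughout. clec-60 was likewise lowest on the former array and least low on the latter, where it was still below 0 (-0.40). On other arrays the order differed. The yolk median was -1.76 and clec-60 -0.74 on LDM in Cy5 replicate 2, against -0.72 and -1.44 on LDM in Cy3 replicate 2. Sperm markers (0 of 15 called) ran from -1.20 to 0.79 per array with sums of 181281 to 435891 in LDM and 248467 to 478462 in control worms, with 1 of the 15 below background on some array, and moulting markers (0 of 12 called, 3 lower at an unadjusted p under 0.05) from -0.48 to 0.24. Compared on the same array, the summed intensity of the intestine markers was higher in LDM than in control worms on all 6 arrays. Their median ratio was nevertheless below 0 on LDM in Cy5 replicates 1 (-0.04) and 3 (-0.01). The summed intensity was higher on 1 array each for hypodermis, muscle, yolk and moulting markers. It was higher on 4 arrays each for galectins, lysozymes and regulators of intestinal immunity. For sperm markers it was higher on 2, for oocyte markers on 3 and for the C-type lectin genes on 5. All 15 sperm estimates were below 0 (median -0.30). The medians of the C-type lectin genes stayed between -0.05 and 0.38. The part of these markers in the C-type lectin results was not tested.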

How the data were processed

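For every spot the authors deposited the raw intensity of each dye and of its local background, as the scanner gave them. Per the file headers, the output also holds the percent of saturated pixels, which was not used, and marks of the image software, whose spots were left out. The deposited series table holds the authors' log2 ratios, normalized in limma by loess within and Aquantile between arrays (r = 0.97 to 0.99 with the ratios recomputed here). It runs as LDM over control, and the authors' limma version is not given in the sources used here. Ratios were recomputed in limma 3.58.1 (R 4.3.3): normexp with an offset of 50, loess over unmarked gene spots, Aquantile, and a model of LDM and dye. The steps were tested on simulated data. A gene is its brightest tested probe. Values at every spot come from loess over all gene spots. The rank product (100 permutations) was written anew after the methods, since the package was not used here. Of the gene probes 21382 (95.1%) matched RefSeq. Array number limits the precision. Arrays with LDM in Cy3 were brighter, with medians of 586.5 to 831.5 (Cy3) and 849.5 to 1259 (Cy5), against 301 to 306 (Cy3) and 273 to 368 (Cy5) on the others. LDM in Cy5 replicate 3 and LDM in Cy3 replicate 1 have equally numbered control extracts in their headers, and a shared extract cannot be told from separate ones.

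Members and gene lists were chosen with earlier results of these data known. Named with values are members that passed either tool or had an unadjusted p under 0.05, the 6 further tested members with the largest ratios, members known from infection work, clec-52, and untested members with a mean of at least 1 in size and 1 sign on all arrays. Untested members of the infection list, clec-61 among them, are given as a description. Other members are named as chosen after their values were seen: clec-58, clec-59, clec-178, clec-225, clec-187 and clec-56. Alternatives varied the background correction, normalization, ratio source, marked and dim spots, model, summary of probes and tool, and left out each array. The authors' ratios at every spot are an alternative chosen after seeing the data.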

Additional observations from a re-analysis of the deposited data

Results flagged for a closer look

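The log2 ratio of clec-230 on LDM in Cy3 replicate 3 was -1.71, far below its other 4 arrays, which lay between -0.42 and -0.08; the gap to the nearest took 0.789 of the whole range, above Dixon's 95% critical value of 0.71 for 5 values. It was the 1 of 37 tested members singled out in this way, and chance alone singles out about 1 in 20. Without that array the estimate for clec-230 was -0.27 in place of -0.51, and with or without it the gene did not pass limma.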

How the results depend on the processing

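clec-209 passed limma under all 14 alternatives and in all 6 fits without 1 array (1.95 to 2.22 on the log2 scale), and clec-45 passed under 6 of 14 (adjusted p 0.00140 to 0.103). Of 37 members 28 kept their sign in every fit that could be run. Without 1 array, clec-47, clec-49, clec-52, clec-196 and clec-230 could be fitted in 4 cases only, 1 of which dropped no value of the gene. clec-8 had 2 such fits, and neither dropped a value of it. The number of members called higher, 2 over all arrays, was 1 with plain background subtraction, print-tip loess, median centring, the authors' ratios (unmarked or every spot) or a date term, 8 with array weights, 4 by rank product, and 1 to 2 with 1 array left out. With marked spots kept 3 of 229 members were called higher, namely clec-209, clec-174 and clec-206, and clec-45 was not. The number called lower, 0, was 4 with array weights and 2 by rank product. Array weights, which let arrays count unequally, gave 574 higher and 834 lower over all genes, where 25 and 5 were called. Over all genes the number higher was 6 with a date term, 3 at the authors' ratios for every spot, 107 by rank product and 5 to 43 without 1 array. The number lower was 3 with print-tip loess or marked spots kept, 9 with scaled arrays, 1 with a date term, 0 at the authors' ratios for every spot, 38 by rank product and 0 to 16 without 1 array. The causes were not tested.

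With same-numbered arrays as a replicate block (correlation 0.11), 1 member was called higher and 0 lower, clec-45 having an adjusted p = 0.0634, and 3 genes of all tested were lower. Whether the numbers pair the arrays cannot be told from so few arrays. Deviations of same-numbered arrays correlated at -0.03, 0.41 and 0.23, and those of differently numbered arrays at -0.41 to 0.03. No other call of a member changed with the block.

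Signs turned only for members near 0 that passed nowhere. With array weights these were clec-197 (-0.17), clec-160 (0.012), clec-51 (-0.20) and clec-225 (-0.066), and with scaled arrays clec-48 (-0.050) and clec-225 (-0.038). With 1 array left out the ratio was -0.016 to 0.32 for clec-197, -0.017 to 0.23 for clec-83, -0.025 to 0.14 for clec-4 and -0.085 to 0.15 for clec-48, lowest without LDM in Cy3 replicate 3. It was -0.19 to 0.66 for clec-178, -0.046 to 0.24 for clec-150, -0.19 to 0.23 for clec-51 and -0.40 to 0.58 for clec-225, lowest without LDM in Cy5 replicate 3, and -0.29 to 0.15 for clec-160, highest without LDM in Cy5 replicate 2.

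The 192 untested members were left out because their spots were marked, although 19 of them were above background in both channels of all 6 arrays, and no limit on their change is given.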
